A study of Sus scrofa with 2 samples.

Results

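Plasminogen activators, their receptor and the inhibitors that hold them in check were followed in granulosa cells of the pig ovarian follicle, which nurse the oocyte and make steroid hormones, after knockdown of SMAD4. The group was taken by gene name: the activators PLAT and PLAU, the receptor PLAUR, the serpins SERPINE2, SERPINF1 and SERPINF2, and the broad protease inhibitor A2M. All 7 genes had an entry among the 34570 entries of the deposited tables. SERPINE2 was listed under its older name PN-1, the synonym that the RefSeq gene table gives for it, and the other 6 under their own symbols. Of the 7, 5 were above 0 in both libraries and passed the minimum mean value of 1, and 2, SERPINF1 and SERPINF2, were listed at 0 in both.

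The cells came from Chinese Erhualian pigs, all female, and received a control siRNA (NC-siRNA) or an siRNA against SMAD4, the SMAD shared by the TGF-beta, activin and BMP pathways. The library of the second group is called the knockdown library below. Each group is 1 library from a pool of equal amounts of RNA of 3 individuals, sequenced from total RNA on an Ion Torrent Proton. There are no replicates, so each difference is one between 2 libraries, and a difference between animals or transfections cannot be told apart from one between siRNAs. The labels do not say whether both pools came from the same animals, nor the animals' ages. Levels are RPKM with upper-quartile scaling, so they are per transcript length, and each range in parentheses is a 95% interval for counting error alone.

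Plasmin is a broad serine protease made when an activator cuts plasminogen. Tissue-type activator works mainly on fibrin and cell surfaces, and urokinase works at the plasma membrane when bound to its receptor. Serpins trap the activators and plasmin in covalent complexes that are then cleared by endocytic receptors. In the ovary, granulosa cells secrete activators under gonadotropin control, and plasmin is known for its part in loosening the follicle wall before ovulation.

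The libraries held at least 17680952 reads on genes for control and 17394711 for the knockdown. SMAD4 was at 85.0 with control siRNA (at least 656 reads) and 47.9 with SMAD4 siRNA (at least 407 reads), a ratio of 0.563 (0.497 to 0.639). Among granulosa markers GATA4, WT1, NR5A1 and FOXL2 were present, whereas FSHR had at least 9 and 7 reads and CYP19A1, AMH and INHBB were listed at 0. The theca markers CYP17A1 and INSL3 were listed at 0. The cells also carried stromal collagen transcripts at high levels, COL1A2 at 47740 and 43291.

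In outline, both activators and A2M were lower in the knockdown library, SERPINE2 was higher, and PLAUR differed by less than its counting interval. A2M stood lowest at a ratio of 0.553, and SERPINE2 stood highest at 1.30. None of the 5 measured members reached 2-fold in either direction, a size that 13.9% of the 16609 genes past the minimum reached, 7.17% as higher and 6.68% as lower. The members' median log2 ratio, on the scale of value + 1, was -0.30, beside -0.05 for those 16609 genes, of which 54.5% were below 0. The ratios of 3 members were below 1 and those of 2 above.

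**Figure D1:**
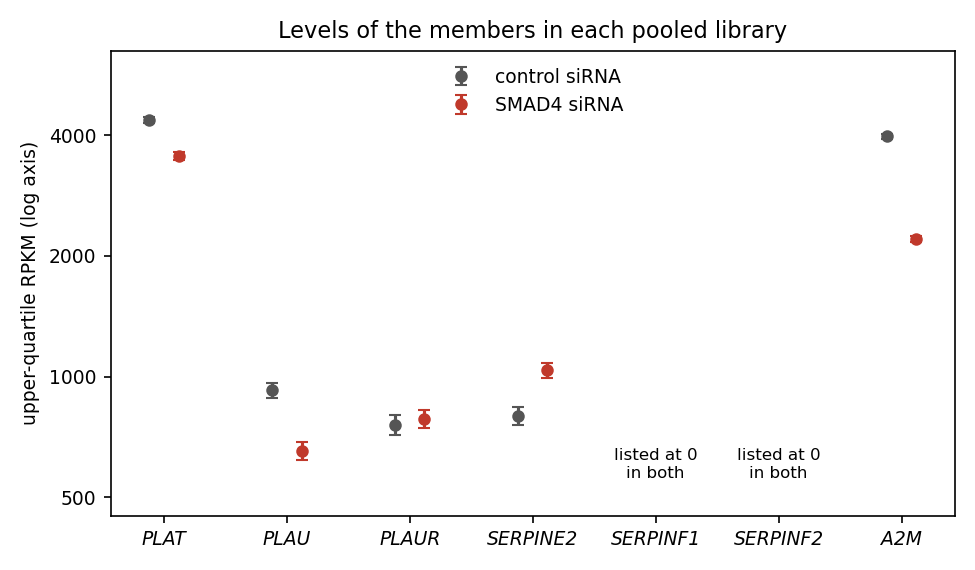
Levels of the 7 genes as upper-quartile RPKM on a log axis, for the control siRNA library (grey) and the knockdown library (red), with 95% exact Poisson intervals from smallest whole reads. PLAT and A2M lie above the others in both libraries, by the least for A2M at 2203 over SERPINE2 at 1037 in the knockdown library. The points of PLAT, PLAU, A2M and SERPINE2 are separated between libraries by more than their intervals.

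PLAT encodes tissue-type plasminogen activator. It was at 4366 in the control library (4280 to 4453, at least 9889 reads) and at 3554 in the knockdown library (3480 to 3628, at least 8863 reads). The knockdown library was the lower one and the intervals did not overlap. The ratio was 0.814 (0.791 to 0.838), or 18.6% lower. PLAT was the highest of the 7 genes in both libraries, ranking 408 of 17277 entries above 0 in the control library and 490 of 17390 in the knockdown library.

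PLAU encodes urokinase, the second activator. Its level was 924 with control siRNA (883 to 966, at least 1953 reads) and 653 with SMAD4 siRNA (620 to 686, at least 1519 reads). It was again lower in the knockdown library without overlap, by 29.4%, at a ratio of 0.706 (0.660 to 0.756). Summed per length, PLAT and PLAU stood at 5290 and 4206, a ratio of 0.795. PLAT made up 82.5% of that sum in the control library and 84.5% in the knockdown library.

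PLAUR, the membrane-anchored receptor that concentrates urokinase at the cell surface, was at 758 in the control library (716 to 802, at least 1204 reads). In the knockdown library it was at 784 (743 to 826, at least 1371 reads). The 2 intervals overlapped, and the ratio of 1.03 (0.956 to 1.12) included 1. With both libraries rescaled to the same sum of values, which multiplies every ratio by 1.09, PLAUR was at 1.12 (1.04 to 1.21) and its interval no longer included 1. Whether its interval included 1 therefore turned on the scaling, while the intervals of the other 4 measured members stayed on the same side of 1.

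SERPINE2, or protease nexin-1, is a secreted serpin that inhibits thrombin, urokinase, tissue-type activator and plasmin. It was at 798 in the control library (759 to 839, at least 1528 reads) and at 1037 in the knockdown library (994 to 1081, at least 2185 reads). This was the single member whose interval lay wholly above 1, at a ratio of 1.30 (1.22 to 1.39), or 29.9% higher. After rescaling to the same sum it was at 1.41 (1.32 to 1.51).

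SERPINF2, or alpha-2-antiplasmin, is the main circulating inhibitor of plasmin, and SERPINF1, or pigment epithelium-derived factor, is a serpin by fold that is known as an inhibitor of vessel growth and not of proteases. Both were listed at 0 in both libraries. They lie close together in the Sscrofa11.1 gene order, and SMYD4, the gene between them, was listed at 0 too. Widely expressed genes such as POR, FLNA and AP1S1 were likewise at 0. Of 14368 mRNA entries with a symbol, 2903 (20.2%) were at 0 in both libraries. A listed 0 is therefore not read here as absence of the transcript, and no ratio was formed.

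A2M encodes alpha-2-macroglobulin, which snares proteases of all classes in a cage after they cut its bait region. Its level was 3981 in the control library (3922 to 4041, at least 17253 reads). The level in the knockdown library was 2203 (2162 to 2246, at least 10514 reads). A2M had the most reads of the members and the lowest ratio, 0.553 (0.540 to 0.567), or 44.7% lower, and 0.601 (0.586 to 0.615) after rescaling. Its close relative and chromosomal neighbour PZP was listed at 0 in both libraries, and the authors' treatment of reads shared by related genes, not given in the sources used here, can affect the A2M value.

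By interval, 3 of the 5 measured members lay wholly below 1 and 1 wholly above. Among all 16609 genes 21.5% lay below and 12.7% above, but most of those genes have far fewer reads and wider intervals. The 4139 genes with at least 1000 reads over both libraries, a depth that all 5 measured members reach, are closer to them: 46.6% of them had an interval wholly below 1, 19.8% wholly above, and 1.04% differed by 2-fold or more in plain ratio. At that depth an interval that excludes 1 is common, so the sizes of the ratios were compared as well. Ratios of these genes had a median of 0.943, with quartiles at 0.845 and 1.05. A2M was near the low end, with 30 of 4139 genes (0.725%) at or below its ratio, and SERPINE2 near the high end, with 143 (3.45%) at or above. For PLAU 224 genes (5.41%) were at or below. PLAT, with 19.6% at or below, and PLAUR, with 28.0% at or above, lay within the bulk.

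**Figure D2:**
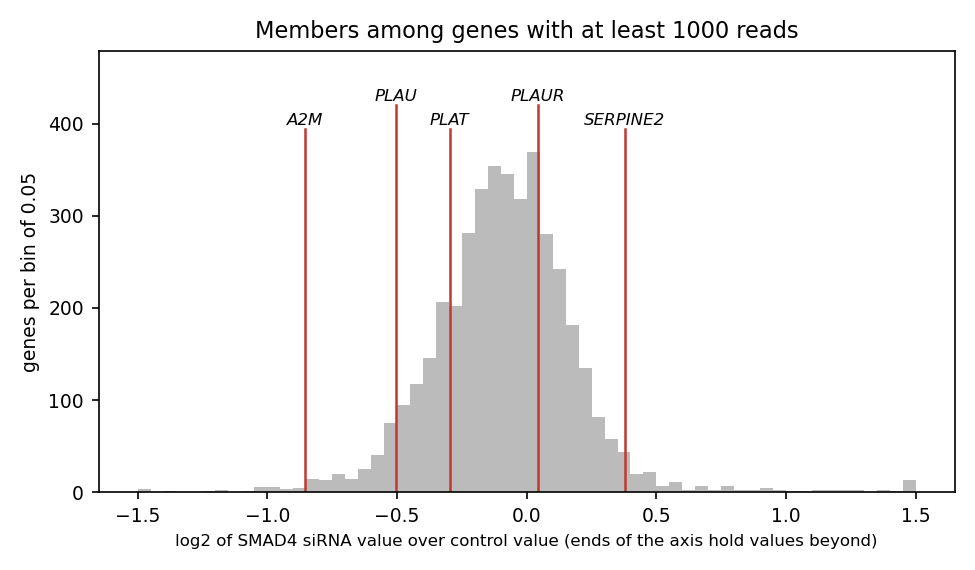
Histogram of the log2 ratio of plain values for the 4139 genes with at least 1000 reads over both libraries, in bins of 0.05, with red lines at the 5 measured members. A2M lies in the left tail and SERPINE2 in the right shoulder, while PLAT and PLAUR lie inside the main body. The 15 genes beyond the ends of the axis are counted in the end bins.

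The order of levels changed between the libraries. With control siRNA it ran PLAT, A2M, PLAU, SERPINE2, PLAUR, where the last pair had overlapping intervals. In the knockdown library it ran PLAT, A2M, SERPINE2, PLAUR, PLAU, and no neighbours in that order overlapped. Urokinase thus lay above SERPINE2 and PLAUR in the control library and below both in the knockdown library. These orders compare levels per length and depend on the transcript lengths the authors used.

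Ratios between 2 members within a library do not depend on how the libraries are scaled. All 10 pairs of the 5 measured members were compared, and in all 10 the counting interval of the change excluded 1. The share of all gene pairs for which this holds was not computed. Among single genes past 1000 reads, 46.6% had an interval wholly below 1 and 19.8% wholly above. An interval that excludes 1 is thus common at this depth, and the sizes of the changes are given. The PLAT level was 5.47 times that of SERPINE2 in the control library and 3.43 times in the knockdown library, a change of 0.627 (0.584 to 0.673). PLAU went from 1.16 times the SERPINE2 level to 0.630 times, so the order of this activator and this inhibitor turned, with a change of 0.544 (0.495 to 0.597).

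Relative to its receptor, PLAU went from 1.22 times the PLAUR level to 0.833 times, a change of 0.683 (0.617 to 0.757). Both activators moved the other way relative to A2M: PLAT was at 1.10 times the A2M level in the control library and at 1.61 times in the knockdown library, a change of 1.47 (1.42 to 1.53). The widest change was between the inhibitors, where SERPINE2 went from 0.200 to 0.470 of the A2M level, a change of 2.35 (2.19 to 2.52). The narrowest was between the activators, with PLAT going from 4.73 to 5.45 times PLAU, a change of 1.15 (1.07 to 1.24). Among the measured members, the transcript balance of activators to inhibitors thus had no single direction. It was lower against the serpin SERPINE2 and higher against the broad inhibitor A2M.

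**Figure D3:**
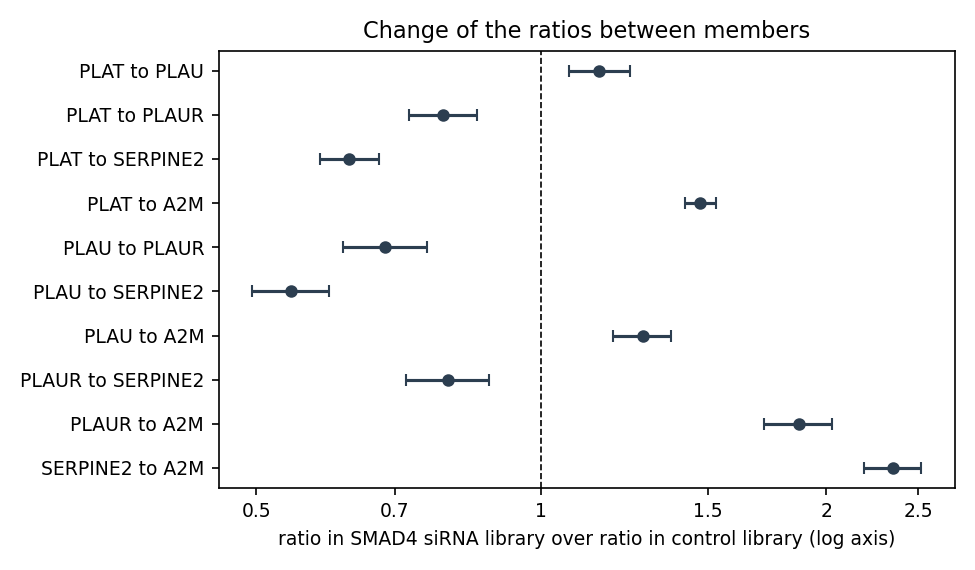
Change of the ratio between each pair of measured members, as the ratio in the knockdown library over that in the control library, on a log axis with 95% counting intervals. The dashed line marks no change, and all 10 intervals lie off it, from 0.544 for PLAU to SERPINE2 up to 2.35 for SERPINE2 to A2M. The share of all gene pairs with such an interval was not computed.

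The other genes of the system were read from 4 lists, and those named with a ratio, MMP1 apart, have at least 100 reads. Of 30 genes for activation, receptors and clearance, 20 were measured and 15 of these had a log2 ratio below 0. For 12 the interval lay below 1 and for 2 above, beside 21.5% and 12.7% of all genes, and the median log2 ratio was -0.23. Of the 17 with at least 100 reads, 10 had an interval below 1 and 2 above. Among all genes with at least 100 reads, the interval of 3135 of 9664 lay below 1 and that of 1697 above. Of the 4139 genes past 1000 reads, 46.6% lay below 1, so intervals below 1 are common among genes read as deeply as many of these. PLG, plasminogen itself, which the liver makes, was listed at 0 in both libraries. LRP1, the endocytic receptor that clears activator-serpin complexes and A2M complexes, was at 3835 and 2710, a ratio of 0.707 (0.695 to 0.719). A second entry named LRP1 in the RefSeq table was at 2308 and 2136, a ratio of 0.926 (0.901 to 0.951), so the size for LRP1 depends on the entry. VLDLR, a related clearance receptor, had a ratio of 0.865 (0.826 to 0.906).

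IGF2R, which also binds PLAUR and plasminogen, was at 0.725 (0.694 to 0.756). The integrin subunits that pair with PLAUR or bind vitronectin lay close together, ITGB1 at 0.695, ITGB5 at 0.702, ITGAV at 0.707 and ITGB3 at 0.723. PLAU at 0.706 lay among them, as did genes of other lists such as MMP2 at 0.705. Surface docking proteins for plasminogen differed less: S100A10 was at 0.880 (0.821 to 0.944), its partner ANXA2 at 0.928 (0.917 to 0.940), and ENO1, a glycolytic enzyme also found at the surface, at 1.05 (1.04 to 1.07). After rescaling to the same sum ANXA2 turned to the other side of 1, at 1.01. F3, or tissue factor, which starts coagulation, was at 0.810 (0.789 to 0.832).

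SERPINB2, a second inhibitor of urokinase, had the highest ratio in that list among genes with at least 100 reads. Its level was 1099 in the control library and 1660 in the knockdown library, a ratio of 1.51 (1.42 to 1.60). PLAU went from 0.841 of the SERPINB2 level to 0.393, a change of 0.467 (0.428 to 0.511). PLAT went from 3.97 times the SERPINB2 level to 2.14 times, a change of 0.539 (0.505 to 0.575). SERPINB2 and SERPINE2 were thus both higher in the library where PLAU and PLAT were lower.

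Of 25 other serpins, 10 were measured, with a median log2 ratio of 0.16. The log2 ratio was below 0 for 4 and above 0 for 6, beside 54.5% of all genes below 0. An interval wholly above 1 was found for 12.7% of all genes and 19.8% of those past 1000 reads. Rescaling to the same sum took the latter share to 38.8%. Among these serpins no interval lay wholly below 1, and 3 lay above it. They were SERPINB2, SERPINB1, an intracellular inhibitor of neutrophil proteases, at 1.33 (1.22 to 1.44), and SERPINH1, the collagen chaperone HSP47, at 1.06 (1.04 to 1.07). SERPING1, the C1 inhibitor, was at 0.964 (0.876 to 1.06) and SERPINB8 at 0.971 (0.841 to 1.12), and both intervals included 1. The other 5 measured serpins had under 100 reads.

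Other protease inhibitors, among them A2M relatives, had a median of -0.51 over 16 measured genes, beside -0.05 for all genes. Of the 16, 14 were below 0, a side that 54.5% of all genes took. Their interval lay below 1 for 5 and above for 2, beside 21.5% and 12.7% of all genes. Of the 16, 10 had under 100 reads, and for the 6 past 100 reads the median was -0.31. CST3, or cystatin C, an inhibitor of cysteine proteases, was at 37902 and 25146, a ratio of 0.663 (0.650 to 0.678). CD109, a membrane protein of the A2M family, was at 0.745 (0.631 to 0.879), and C3, the complement component of that family, at 0.802 (0.676 to 0.952). Both A2M relatives with at least 100 reads were thus below 1 as A2M was, but by less. After rescaling to the same sum the interval of C3, at 0.871 (0.733 to 1.03), included 1, and that of CD109, at 0.809 (0.685 to 0.954), did not. TIMP2 was at 0.813 (0.795 to 0.832) and TIMP1 at 1.04 (1.03 to 1.05).

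Plasmin targets and follicle wall proteases had a median of -0.47 over 18 measured genes, 16 of them below 0, a side that 54.5% of all genes took. Of their intervals 13 lay below 1 and 1 above, all among the 16 genes with at least 100 reads. These counts are to be read beside the same 3135 and 1697 of 9664 genes and the 46.6% of genes past 1000 reads. MMP9, a gelatinase, was lowest at 0.385 (0.306 to 0.481), and MMP2, the other gelatinase, was at 0.705 (0.695 to 0.714). The latent TGF-beta binding protein LTBP1, which anchors a growth factor store that plasmin can release, was at 0.675 (0.591 to 0.771). The basement membrane chains LAMC1 and COL4A1 were at 0.723 and 0.721. MMP14, a membrane protease, was at 0.996 (0.942 to 1.05), and ADAMTS4, which cuts aggrecan and versican, was highest among those with at least 100 reads, at 1.65 (1.29 to 2.12). MMP1, an interstitial collagenase, had a higher ratio, 4.54 (0.968 to 42.6), on at least 2 and 10 reads.

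**Figure D4:**
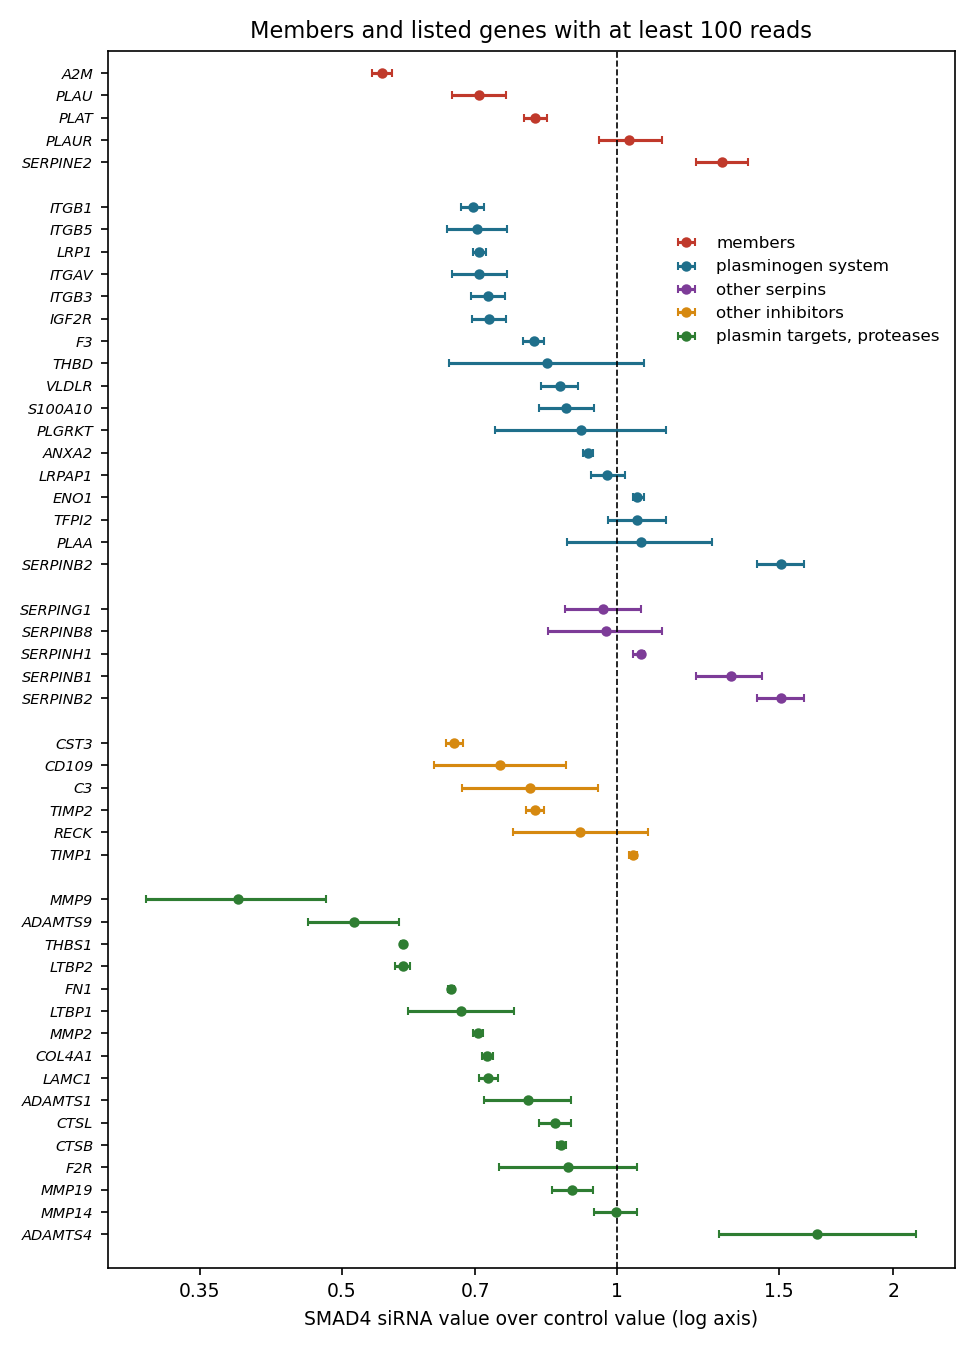
Ratio of the SMAD4 siRNA value to the control value on a log axis, with 95% counting intervals, for the 5 measured members and the genes of the 4 lists with at least 100 reads. The dashed line marks equal values. SERPINE2, SERPINB2 and SERPINB1 lie to its right, whereas PLAU, the plotted LRP1 entry and the integrin subunits are among the genes of several lists near 0.7.

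Markers of other cells that could carry these transcripts were read beside them. In bulk RNA fewer cells of a type and less RNA per cell cannot be told apart. All 6 measured stromal markers had a log2 ratio below 0, as 54.5% of all genes did, with a summed level of 87835 and 74108. For 5 of them, such as DCN at 0.743 (0.707 to 0.781), the interval lay below 1, as for 46.6% of genes past 1000 reads. After rescaling to the same sum that of PDGFRA, at 0.952 (0.880 to 1.03), included 1, while those of DCN, COL1A2, COL3A1 and LUM stayed below. A second entry of PDGFRA was at 0.796 (0.732 to 0.865) as deposited. The interval of PDGFRB, at 0.918 (0.837 to 1.01), included 1, and a second entry of that name was at 124 and 148, a ratio of 1.19 (1.03 to 1.38). Their part in the lower values of A2M, PLAT and PLAU was not tested. Endothelial cells also make PLAT: of that list 4 of 8 were measured, 3 of them lower, with sums of 445 and 341, mostly PECAM1 at 0.875 and ERG at 0.582. TEK and TIE1 were listed at 0 and VWF had at least 7 and 6 reads. The part of endothelial cells in the PLAT value was not tested.

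Macrophages make PLAU and PLAUR, and leukocyte transcripts were near 0 apart from CD14: PTPRC had at least 1 and 2 reads and CSF1R at least 8 and 3, with CD163 listed at 0. The leukocyte sums over 3 measured genes were 582 and 569, mostly CD14 at 579 and 566. Hepatocytes are the source of plasma A2M, and ALB had at least 1 and 2 reads, with TTR and APOH listed at 0 and APOA1 at 497 and 504. Oocytes store PLAT, and of their 7 markers 2 were measured, with sums of 76.1 and 61.7. Of these, GDF9 was at 73.2 and 56.6, and ZP2 and ZP3 were listed at 0. As above, a listed 0 is not read as absence. The part of leukocytes, hepatocytes and oocytes in the values of the members was not tested.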

How the data were processed

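The authors deposited RPKM with upper-quartile scaling, per the names and headers of their tables, 1 table per pooled library. The aligner, counter, genome build and annotation, not given in the sources used here, can move a gene's level and its listed zeros. Values were used as deposited. Reads were recovered with a divisor of 890 (control) and 980 (SMAD4 siRNA). Each of the 18428 genes above 0 then gave whole reads at some whole length no longer than 40000 bases (tolerances 2e-09 relative, 1e-06 absolute). The smallest such reads were used, so they are lower bounds, and intervals are no narrower than the true reads would give.

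Log2 ratios of SMAD4 siRNA to control were taken after adding 1 to each value, for genes whose mean value was 1 or more. This scale understates changes of low genes, so single genes have plain ratios, with exact Clopper-Pearson 95% intervals from the split of reads. Changes of ratios between genes have normal-approximation intervals of the odds ratio. Intervals cover counting error only, and PCR copies were not told apart by molecular identifiers. With 1 library per group no test was made. The members and lists were chosen with earlier results of these data known. Named are all 7 members, SMAD4 and list genes with at least 100 reads, with those at each end; genes listed at 0 and markers with few reads are given as such. POR, FLNA, AP1S1, SMYD4, RPA1 and MMP1 were chosen after their values were seen. Of the 8 genes at 0 in the first list, not all are reported here. Names of entries under older symbols came from RefSeq's table of Sscrofa11.1, used for names and gene order only. Alternatives were pseudocounts of 0.1 and 5, rescaling, centring on the median, a 1.5-fold threshold and other minimums. The interval rule and the minimum of 1000 reads were chosen after seeing the data. Steps were tested on simulated data made with the same divisors and lengths and with counting error only. That test checks the arithmetic, and cannot check the divisors or variation between libraries. Python 3.11.15, scipy 1.17.1 and pandas 2.3.3 were used.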

Additional observations from a re-analysis of the deposited data

How the results depend on the processing

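No paired analysis was possible because each group has 1 pooled library. For the same reason no replicate could be left out. All 5 measured members stayed on their side of 1 under the 4 alternatives run on them. Rescaling each library to the same sum gave PLAT 0.883, PLAU 0.767, PLAUR 1.12, SERPINE2 1.41 and A2M 0.601, all outside their counting intervals, since it multiplies each ratio by 1.09. Centring on the median gave PLAT 0.841 and A2M 0.572. Intervals wholly above 1 numbered 1 of 5 as deposited and 2 after rescaling, with PLAUR added. Those wholly below 1 numbered 3 in each setting. The background moved as well. Of the 4139 genes with at least 1000 reads, 19.8% lay wholly above 1 and 46.6% wholly below as deposited. After rescaling these shares were 38.8% and 27.7%, so which side is the more common depends on the scaling. At 1.5-fold 1 member, A2M, counted as lower, and 0 as higher.

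All genes higher by 2-fold numbered 1191, against 466 with a pseudocount of 5, 208 after rescaling, 2245 at 1.5-fold and 572 with a mean value of at least 5. Those lower numbered 1110, against 437, 112, 2277 and 546 in the same order. The list medians moved by more than 0.1 after rescaling to -0.10 for activation, receptors and clearance, -0.18 for other protease inhibitors and -0.35 for plasmin targets. The second of these was also -0.37 with a pseudocount of 5 and -0.31 with at least 100 reads. Stricter minimums leave fewer genes, and rescaling lowers all values, so that the pseudocount weighs more. Depth limits the 5 measured members little, since each had at least 1204 reads in either library, while SERPINF1 and SERPINF2 had none and give no ratio. The lack of replicates limits every ratio.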
